A study of Mus musculus with 4 samples.

Results

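The genes Socs1, Socs2, Socs3, Cish, Jak2, Ptpn1 and Ptpn2, which encode brakes of cytokine signalling and 1 kinase that they restrain, were followed by name through a single-cell RNA sequencing matrix of tumour immune cells. They were 7 of the 32285 genes in the matrix, and all 7 held counts in each of the 4 samples. Every sample was a YUMM1.7 OVA mouse melanoma grown in Rag2-/- mice, which make no T or B cells, and every mouse received OT-1 T cells on day 7, with tumours isolated on day 10, 72 h later. NTT tumours came from a line naive to targeted therapy (Y1.7_NTT_3A6) and RTT tumours from a line that had become resistant to it (Y1.7_RTT_2B12). RTT_ROSA26 was a resistant line with a control guide against Rosa26, and RTT_PTGS12KO a resistant line in which Ptgs1 and Ptgs2 were knocked out. By the study's methods the resistance arose under MAPK pathway inhibitors, resistant lines were cultured in dabrafenib, and edited lines came from clones with inducible Cas9. A line is thus 1 or a few clones, and which of its traits are those of the clone cannot be told apart from those of its group. These edits sit in the injected cancer cells, whereas the sequenced cells were live CD45+ cells of the host and the transferred T cells, so the counts of Ptgs1 and Ptgs2 in these cells do not check the knockout, and the hosts carried the same genotype in all groups. Each group was 1 sample from 1 line, the labels give 1 tumour per condition, the legends of the study describe pooled tumours, and which holds was not settled. Host mice were 6 to 12 weeks old.

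Cytokine receptors of this family signal through bound Janus kinases (JAKs), which phosphorylate the receptor and then STAT transcription factors. Many SOCS genes are themselves STAT targets, and their proteins bind the receptor or the JAK and shut the signal off, which makes them feedback genes. Socs1 is best known for restraining interferon signals, Socs3 for restraining signals through gp130 and the G-CSF receptor, Cish and Socs2 for acting on STAT5-linked receptors, and Ptpn1 (PTP1B) and Ptpn2 (TC-PTP) for removing phosphates from JAKs and STATs.

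Promoter windows are shown for the 3 genes, among those of the list with a window to search, that held a STAT-type or interferon-type motif. The windows run from 250 bases before to 50 bases after the start of the gene in RefSeq (GRCm38.p6), and 5 of the 6 members looked up had a window. Socs2 had none, and Ptpn2 was not looked up. Capitals mark the matches, which are TTCNNNGAA (the core of a STAT site, GAS) or GAAANNGAAA (the core of an interferon-stimulated response element, ISRE), each searched on both strands. A cAMP response element was searched as well and was in none of the windows.
Socs1, chr16:10785487-10785786, minus strand: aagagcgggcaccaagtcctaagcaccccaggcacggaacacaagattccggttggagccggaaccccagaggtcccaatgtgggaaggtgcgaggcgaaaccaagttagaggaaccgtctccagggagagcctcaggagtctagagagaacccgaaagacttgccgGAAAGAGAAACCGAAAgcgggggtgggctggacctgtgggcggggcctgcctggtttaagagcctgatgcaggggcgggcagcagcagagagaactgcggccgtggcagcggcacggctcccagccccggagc
Socs3, chr11:117969317-117969616, minus strand: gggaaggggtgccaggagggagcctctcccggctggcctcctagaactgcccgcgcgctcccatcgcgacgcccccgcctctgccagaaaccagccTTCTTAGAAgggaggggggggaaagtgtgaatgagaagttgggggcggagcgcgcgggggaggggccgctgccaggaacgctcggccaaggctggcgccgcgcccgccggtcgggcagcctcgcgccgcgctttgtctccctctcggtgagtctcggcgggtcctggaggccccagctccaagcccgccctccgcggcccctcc
Cish, chr9:107296409-107296708, plus strand: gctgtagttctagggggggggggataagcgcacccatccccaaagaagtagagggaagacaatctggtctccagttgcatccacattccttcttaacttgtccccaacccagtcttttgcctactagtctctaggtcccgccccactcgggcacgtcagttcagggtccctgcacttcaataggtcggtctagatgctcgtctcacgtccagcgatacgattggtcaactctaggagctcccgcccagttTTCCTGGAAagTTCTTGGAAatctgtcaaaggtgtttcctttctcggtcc
In the Socs1 window 2 overlapping ISRE matches begin at positions 168 and 174, counted from 1 at the left end. The Socs3 window has 1 GAS match at position 97, and the Cish window has 2, at positions 251 and 262, just past the RefSeq start. The windows of Jak2 and Ptpn1 held none of these letters. Of 32851 promoter windows of the same length, 8.30% held the GAS letters, 3.44% the ISRE letters and 1.79% the full cAMP response element, so a match is not rare and is only a description. The RefSeq starts of Socs3, Cish and Ptpn1 lie inside their GENCODE genes, which begin further upstream, so their windows do not reach the annotated starts. In the GENCODE annotation of GRCm38, Socs1 lies on chromosome 16 from 10782240 to 10785536, Socs2 on chromosome 10 from 95385362 to 95417180, Socs3 on chromosome 11 from 117966079 to 117970047, Cish on chromosome 9 from 107296026 to 107302784, Jak2 on chromosome 19 from 29251828 to 29313080 and Ptpn1 on chromosome 2 from 167932057 to 167979385, all annotated as protein coding.

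The matrix held 33368 cells under 17 cell type names given by the authors, with 6836 to 10296 cells and 69332486 to 146829369 UMIs (unique molecules) per sample. NTT was the shallowest, with a median of 7293 UMIs per cell against 12219 to 13280 in the other samples. Monocytes (Monocyte_1, Monocyte_3 and Infl_Mono) numbered 6619 cells for NTT, 522 cells for RTT, 144 cells for RTT_ROSA26 and 4015 cells for RTT_PTGS12KO, and macrophages (the TAM types and Ctsk_Macro) numbered 308, 6734, 5993 and 5207. The class Macro was kept apart. All 6 macrophage markers were highest in macrophages, but 3 of 5 monocyte markers were highest in monocytes and 3 of 5 cDC2 markers in cDC2s, and Ptprc, which encodes CD45, was at 18.5 CPM in the cells named Myofibrobl against 222 to 1008 CPM elsewhere. Of 33270 distinct cell barcodes, 98 occurred in over 1 of the 3 loads of the pooled cells, 75 in over 1 sample, and 0 in over 1 sample of the same load.

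Levels are given as CPM, the UMIs of a gene per 1e6 UMIs summed over the cells named, and differences as log2 ratios of CPM + 1. Since a group is 1 sample, differences could not be set against replicates and none was tested. Intervals are at 95% (exact Poisson for levels, conditional binomial for ratios, exact Clopper-Pearson for shares). They hold the error of counting and leave out how much mice or tumours vary. RTT_ROSA26 against RTT served as the difference between resistant tumours that both keep Ptgs1 and Ptgs2; it shares the RTT library with NTT against RTT and the RTT_ROSA26 library with the knockout comparison. Values over monocytes and macrophages together also carry the mix of both classes, so members are given for each class on its own, and other genes pooled first and then by class.

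Socs1 was the member with the widest range between samples over monocytes and macrophages together. It was at 142 CPM (139 to 145) in NTT, 18.4 CPM (17.6 to 19.2) in RTT, 8.06 CPM (7.52 to 8.64) in RTT_ROSA26 and 84.0 CPM (82.5 to 85.6) in RTT_PTGS12KO. NTT and the knockout were thus high and both resistant tumours with intact Ptgs genes low, the log2 ratio being 2.88 (2.81 to 2.95) in the comparison of NTT with RTT and 3.23 (3.14 to 3.32) in that of the knockout with RTT_ROSA26. RTT_ROSA26 lay below RTT by a log2 ratio of -1.10 (-1.21 to -0.99), so resistant tumours with intact Ptgs genes also differed by 2.14-fold. Over the 3 loads of the chip, a technical spread, NTT over RTT ran from 2.82 to 2.96 and the knockout over its control from 3.14 to 3.35. Socs1 belongs to gene lists that the study drew from these samples, so its direction in the knockout is not independent evidence.

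Monocytes were 6619 of 6927 of these cells in NTT and 522 of 7256 in RTT, so the pooled levels cover different mixes of classes. Taken by class, Socs1 spanned a wider range between samples in macrophages than in monocytes. Among monocytes Socs1 was at 147 CPM (144 to 150.4) in NTT, 104 CPM (94.8 to 113) in RTT, 99.8 CPM (81.2 to 121) in RTT_ROSA26 and 122 CPM (119 to 125) in RTT_PTGS12KO. These 4 levels spanned less than 2-fold, and the interval of RTT_ROSA26 reached those of RTT and of the knockout. Among macrophages it was at 73.3 CPM (65.2 to 82.1) in NTT, 14.1 CPM (13.4 to 14.9) in RTT, 7.14 CPM (6.62 to 7.68) in RTT_ROSA26 and 66.4 CPM (64.7 to 68.1) in RTT_PTGS12KO. The intervals of NTT and the knockout overlapped, and both lay far above the other samples, with a knockout log2 ratio of 3.05 (2.95 to 3.15), or 8.28-fold. Within one sample, monocytes exceeded macrophages by 6.92-fold in RTT and 12.4-fold in RTT_ROSA26, against 1.99-fold in NTT and 1.83-fold in RTT_PTGS12KO. This comparison within samples was added after the levels were seen.

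**Figure D1:**
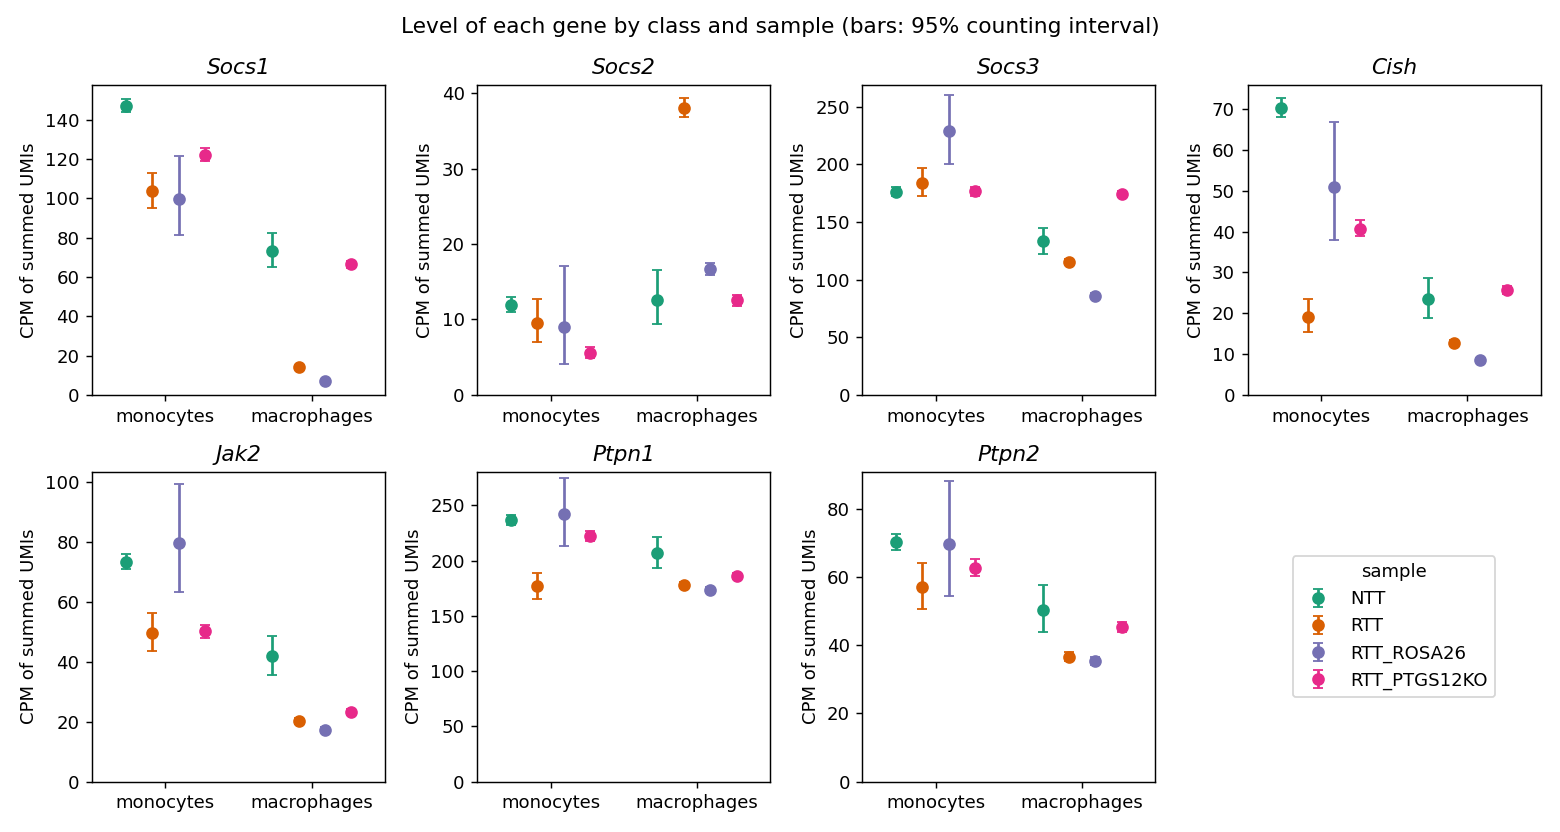
Level of each gene (y axis, CPM of summed UMIs, from 0) in monocytes and macrophages (x axis), 1 point per sample with its 95% counting interval. Socs1 in macrophages separates NTT (73.3 CPM) and RTT_PTGS12KO (66.4 CPM) from RTT (14.1 CPM) and RTT_ROSA26 (7.14 CPM), whereas Ptpn1 lies between 174 and 242 CPM throughout.

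Cell type markers also differed between the macrophages of the samples, though not in step with Socs1 throughout. From RTT to RTT_ROSA26 Socs1 fell while the monocyte and cDC1 markers did not. The summed level of the 5 monocyte markers in macrophages was 1765 CPM in NTT, 327 CPM in RTT, 342 CPM in RTT_ROSA26 and 645 CPM in RTT_PTGS12KO, that is 23.3%, 9.70%, 4.70% and 11.3% of the level in monocytes of the same sample. Socs1 in macrophages stood at 49.9%, 13.6%, 7.15% and 54.4% of its monocyte level, a larger share than that of the monocyte markers in every sample. The 5 cDC2 markers also differed between the macrophages, at 4401 CPM in NTT, 731 CPM in RTT, 601 CPM in RTT_ROSA26 and 1700 CPM in RTT_PTGS12KO, as did the 5 cDC1 markers, at 264, 56.8, 58.99 and 203 CPM. The 6 macrophage markers went the other way, at 16330, 32350, 24650 and 15290 CPM. The part of these differences in the result was not tested.

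Within single macrophage types the knockout log2 ratio of Socs1 ran from 2.66 in TAM_Spp1 to 3.40 in TAM_cycling. In RTT_PTGS12KO against RTT_ROSA26 it was past 2-fold higher in 8 of 9 types with at least 50 cells in both samples, with a median log2 ratio of 2.75. In TAM_cycling, macrophages named for proliferation genes, Socs1 was at 68.8 CPM in NTT, 13.4 CPM in RTT, 5.98 CPM in RTT_ROSA26 and 72.8 CPM in RTT_PTGS12KO, which gave the highest knockout log2 ratio, 3.40 (3.24 to 3.56). In TAM_C1q it was at 45.8 CPM in the knockout against 5.94 CPM in RTT_ROSA26, and in TAM_Spp1 at 67.4 against 9.84 CPM. The same direction appeared outside macrophages, at 96.3 against 10.2 CPM in cDC2s and at 121 against 19.2 CPM in neutrophils. The exception was Monocyte_1, the main monocyte type, with 112 CPM in the knockout and 114 CPM in RTT_ROSA26 and a log2 ratio of -0.03 (-0.44 to 0.41). In Infl_Mono, the inflammatory monocytes of the authors, the log2 ratio was 1.12 (0.72 to 1.54).

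NTT against RTT was less uniform. Of 6 types with enough cells, Socs1 was past 2-fold higher in 2, TAM_cycling with a log2 ratio of 2.28 (1.93 to 2.61) and cDC2 with 1.28 (0.91 to 1.65). In TAM_H2Ab1, macrophages named for an MHC class II gene, it was at 83.6 CPM in NTT and 106 CPM in RTT, a log2 ratio of -0.34 (-0.71 to 0.03). TAM_H2Ab1 made up 192 of the 308 NTT macrophages, whereas TAM_C1q, at 11.1 CPM in RTT, made up 3412 of the 6734 RTT macrophages. The class ratio of 2.30 (2.12 to 2.48) therefore joins different types. In RTT_ROSA26 against RTT, where neither sample lacked the Ptgs genes, 4 of 10 types were past 2-fold lower. They were led by cDC2s (-1.84, -2.45 to -1.24) and neutrophils (-1.68, -2.20 to -1.17). Monocyte_1 was at 0.31 (-0.16 to 0.75), and Myofibrobl, at 0.76, was the only type whose interval lay above 0.

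**Figure D2:**
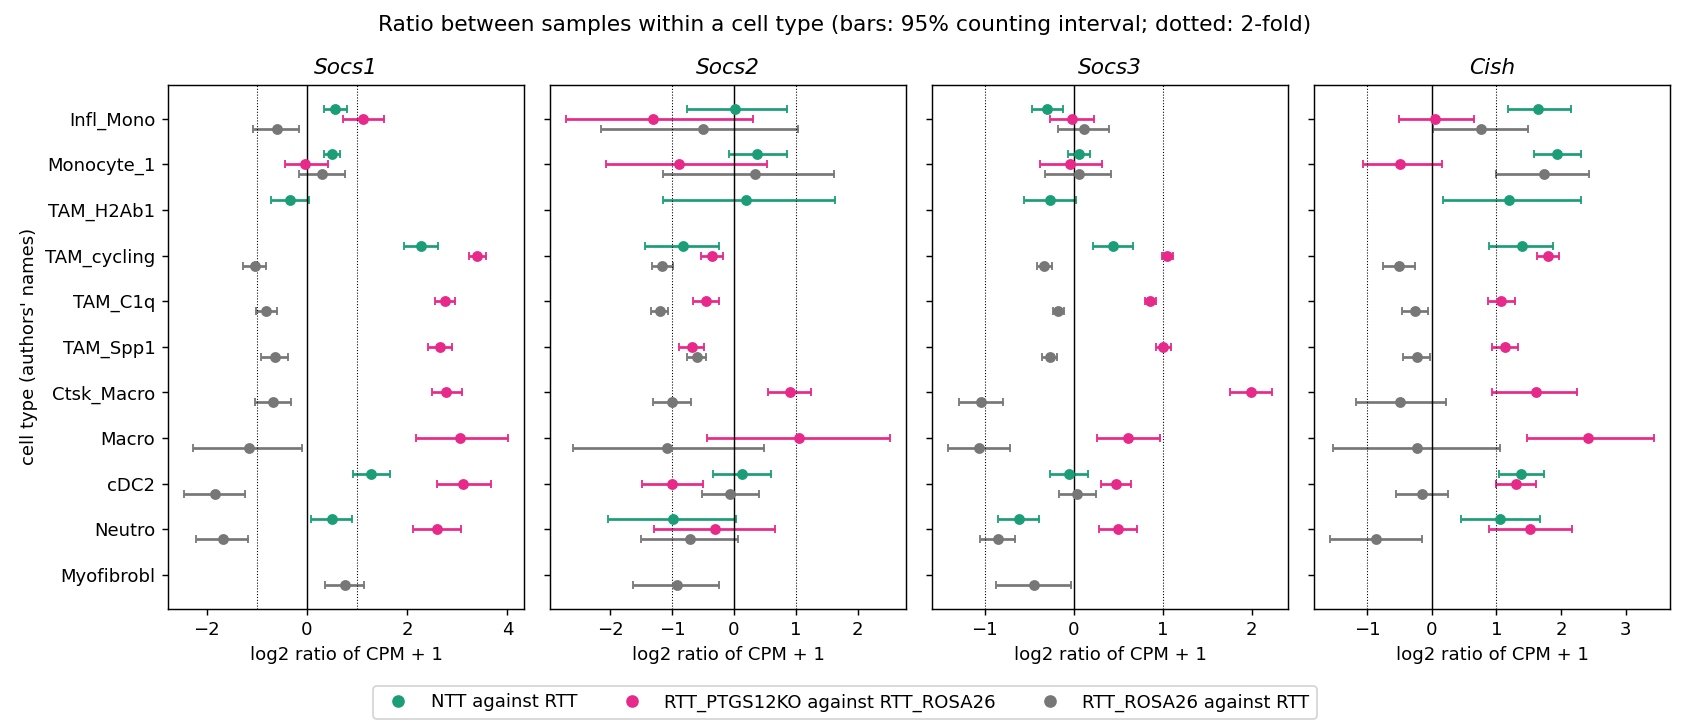
Log2 ratio of CPM + 1 between samples (x axis) within each cell type (y axis) for Socs1, Socs2, Socs3 and Cish, with 95% counting intervals and dotted lines at 2-fold; a pair in which 1 sample held no UMI is not drawn. For Socs1 the knockout ratio lies past 2-fold in 8 of 9 types and at -0.03 in Monocyte_1, and for Cish NTT against RTT lies past 2-fold in 6 of 6 types.

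By the median over samples, the order of cell types for Socs1 began with Infl_Mono at 167 CPM (90.4 to 204 over 4 samples) and Monocyte_1 at 113 CPM (91.7 to 130.3), and ended with TAM_Spp1 at 15.9 CPM (9.84 to 67.4) and TAM_C1q at 11.1 CPM (5.94 to 45.8). The ranges of neighbours overlapped throughout this order except between NK cells (46.4 CPM, 44.9 to 47.8) and CD8 T cells (44.2 CPM, 1 sample), so it separates few types. TAM_H2Ab1 was the macrophage type with the highest median, at 83.6 to 106 CPM in 3 samples and with too few cells (11) in RTT_ROSA26, but in RTT_PTGS12KO its level of 85.3 CPM lay below that of Ctsk_Macro (92.5 CPM). DC3, in which the markers of CCR7+ dendritic cells were highest, held 136 CPM in NTT and 76.3 CPM in RTT_PTGS12KO.

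The share of cells with a Socs1 UMI followed the same pattern. After each cell was thinned to 3000 UMIs, 17.6% (13.5% to 22.4%) of NTT macrophages and 14.2% (13.2% to 15.2%) of RTT_PTGS12KO macrophages held one, against 3.94% (3.48% to 4.43%) of those in RTT and 2.02% (1.67% to 2.40%) of those in RTT_ROSA26. Without thinning the shares were 46.8% and 38.6% against 12.4% and 8.19%, and 2 to 38 macrophages per sample were too shallow to be thinned. In monocytes the thinned shares were 30.5%, 22.1%, 23.2% and 26.5%, with 6 to 162 cells left out. No cell type here is known to lack Socs1. All samples were pooled before loading and so shared the free RNA of each load, whose part in these shares was not tested. The lowest share was 1.66% (1.17% to 2.28%) in TAM_C1q of RTT_ROSA26. It was found among 32 units of cell type and sample, which leave out Ctsk_Macro, TAM_H2Ab1 and Macro among others. The macrophages of RTT_ROSA26, at 2.02%, lay near it. They held a mean of 16619.5 UMIs per cell against 7790.5 in NTT monocytes, so this share sets no bound for shallower cells.

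**Figure D3:**
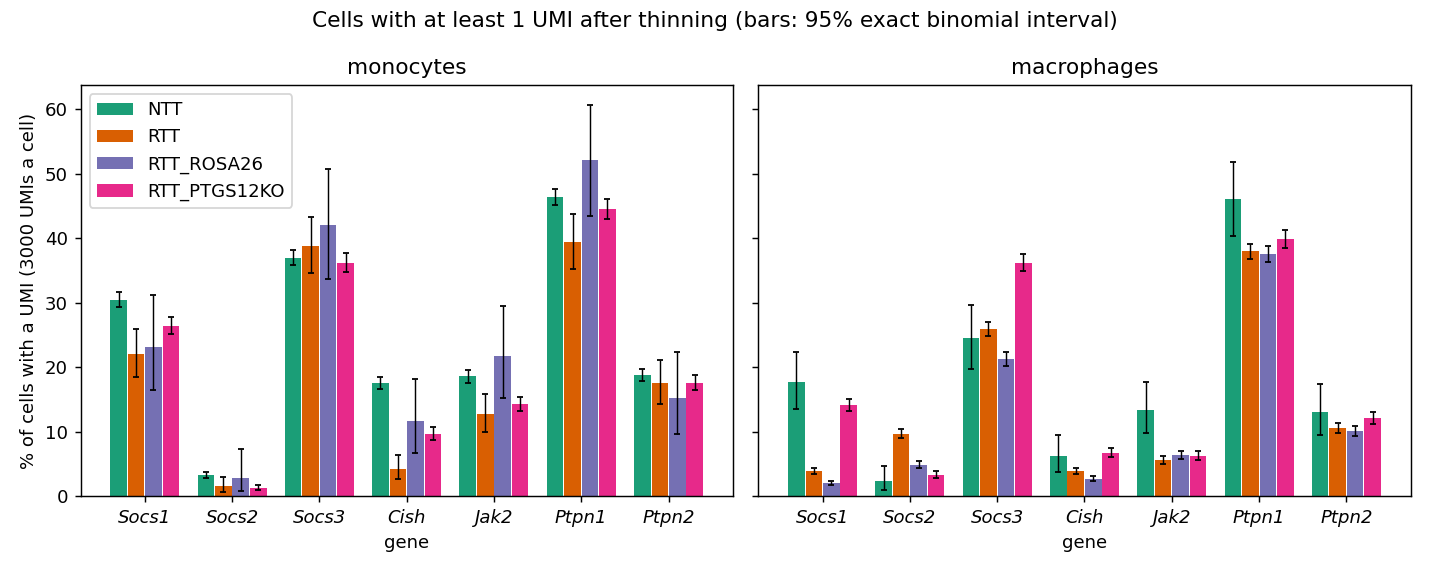
Share of monocytes (left) and macrophages (right) with at least 1 UMI of each gene (y axis, %, from 0) after thinning to 3000 UMIs per cell, 1 bar per sample with its exact 95% binomial interval. Socs1 is at 17.6% and 14.2% in NTT and RTT_PTGS12KO macrophages and at 3.94% and 2.02% in RTT and RTT_ROSA26, and the monocyte shares lie between 22.1% and 30.5%.

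Socs3, the other strong feedback inhibitor of the family, differed less between the macrophages of the samples. In macrophages it was at 133 CPM (122 to 145) in NTT, 115 CPM (113 to 118) in RTT, 86.2 CPM (84.3 to 88.0) in RTT_ROSA26 and 174 CPM (172 to 177) in RTT_PTGS12KO. The knockout was highest and RTT_ROSA26 lowest, a log2 ratio of 1.01 (0.97 to 1.05) that sits at the 2-fold line, with 0.94 to 1.08 in the 3 loads. NTT exceeded RTT by a log2 ratio of 0.20 (0.08 to 0.33), and in load 3 alone the ratio was -0.04. In monocytes Socs3 was at 176 CPM (173 to 180.1) in NTT, 184 CPM (172 to 197) in RTT, 229 CPM (199.9 to 260.1) in RTT_ROSA26 and 177 CPM (173 to 181) in RTT_PTGS12KO. Here RTT_ROSA26 was the highest, from 144 cells of which 86 were Infl_Mono, and within Infl_Mono and Monocyte_1 the knockout log2 ratios were -0.02 (-0.27 to 0.23) and -0.04 (-0.38 to 0.32).

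The higher level of Socs3 in the knockout was uneven among macrophage types. In Ctsk_Macro, macrophages named for cathepsin K, it was at 104 CPM in RTT_PTGS12KO and 25.4 CPM in RTT_ROSA26, a log2 ratio of 1.99 (1.76 to 2.23), with RTT between them at 53.3 CPM. TAM_cycling gave 1.05 (0.99 to 1.11), TAM_Spp1 1.01 (0.92 to 1.09) and TAM_C1q 0.86 (0.80 to 0.92). Neutrophils held 201 CPM in NTT, 309 CPM in RTT, 171 CPM in RTT_ROSA26 and 242 CPM in RTT_PTGS12KO, so there RTT was the highest sample. After thinning, 36.2% (34.9% to 37.5%) of RTT_PTGS12KO macrophages held a Socs3 UMI, against 21.3% (20.2% to 22.3%) of RTT_ROSA26, 25.9% of RTT and 24.5% of NTT macrophages, and unthinned 74.5%, 52.4%, 57.8% and 65.3%. By median over samples Infl_Mono (252 CPM, 199 to 264) and neutrophils (222 CPM, 171 to 309) headed the order, with overlapping ranges, and NK cells (37.5 CPM, 36.2 to 38.9) and Myofibrobl (26.6 CPM, 22.4 to 30.8) closed it.

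Socs1 and Socs3 UMIs were not confined to separate cells. In thinned macrophages of RTT_PTGS12KO, 18.7% of 1880 cells with a Socs3 UMI also held a Socs1 UMI, against 11.6% of 3315 cells without one. In RTT these shares were 5.75% of 1739 and 3.30% of 4969 cells, and in RTT_ROSA26 2.92% of 1266 and 1.77% of 4689 cells. In NTT they were 17.3% of 75 and 17.7% of 231 cells. Cells of 1 sample are not replicates, and these shares have no test. The part of free RNA and of doublets within a sample was not tested either. The Socs1 shares of RTT_ROSA26 lay near the lowest of the 32 units, 1.66%.

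Cish, a feedback gene of STAT5, was higher in NTT than in RTT in every type that could be compared. In monocytes it was at 70.3 CPM (68.1 to 72.7) in NTT, 19.2 CPM (15.5 to 23.5) in RTT, 50.9 CPM (37.9 to 66.9) in RTT_ROSA26 and 40.7 CPM (38.8 to 42.7) in RTT_PTGS12KO. RTT was the low sample and its interval touched no other. RTT monocytes also had the highest macrophage markers, at 14730 CPM against 5108 in NTT, 8738 in RTT_ROSA26 and 6101 in RTT_PTGS12KO, and the lowest monocyte markers, at 3366 CPM against 7567, 7281 and 5698; their part in the result was not tested. The log2 ratio of NTT against RTT was 1.82 (1.54 to 2.12), that of RTT_ROSA26 against RTT was 1.36 (0.86 to 1.85), and that of the knockout against RTT_ROSA26 was -0.31 (-0.71 to 0.11). In the 6 types compared between NTT and RTT, the log2 ratio ran from 1.05 (0.45 to 1.67) in neutrophils to 1.94 (1.58 to 2.32) in Monocyte_1. In RTT_ROSA26 against RTT, Cish in Monocyte_1 stood at 55.8 against 16.0 CPM, from 54 cells in RTT_ROSA26. The thinned share of monocytes with a Cish UMI was lowest for RTT, at 4.297% (12.3% unthinned), followed by 9.70% for RTT_PTGS12KO (27.2%), 11.6% for RTT_ROSA26 (22.2%) and 17.5% for NTT (33.9%).

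In macrophages the order of the samples for Cish was another one. It was at 23.4 CPM (18.9 to 28.6) in NTT, 12.6 CPM (11.9 to 13.4) in RTT, 8.54 CPM (7.98 to 9.14) in RTT_ROSA26 and 25.7 CPM (24.7 to 26.8) in RTT_PTGS12KO, as for Socs1 with NTT and the knockout on top. The knockout log2 ratio was 1.48 (1.38 to 1.59), with 1.45 to 1.51 over the loads but 0.94 with CPM + 10, which is below 2-fold, and it was past 2-fold in 7 of 9 types, Infl_Mono (0.05, -0.51 to 0.65) and Monocyte_1 (-0.49, -1.07 to 0.16) being the exceptions. NTT against RTT was 0.84 (0.54 to 1.13) over all macrophages but 1.40 (0.89 to 1.87) within TAM_cycling and 1.19 (0.17 to 2.31) within TAM_H2Ab1. cDC2s held more, at 117 CPM in NTT, 44.2 CPM in RTT, 39.8 CPM in RTT_ROSA26 and 99.5 CPM in RTT_PTGS12KO, the same split of the samples. DC3 (93.3 CPM, 64.7 to 122 over 2 samples) headed the order and Ctsk_Macro (3.50 CPM, 2.21 to 8.79) lay near its end.

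Socs2, an inhibitor of growth hormone and related receptors, ran the other way. In macrophages it was at 12.5 CPM (9.34 to 16.5) in NTT, 38.1 CPM (36.9 to 39.3) in RTT, 16.7 CPM (15.9 to 17.5) in RTT_ROSA26 and 12.5 CPM (11.8 to 13.3) in RTT_PTGS12KO. RTT was the highest, with NTT below it by a log2 ratio of -1.53 (-1.92 to -1.16) and RTT_ROSA26 below it by -1.15 (-1.23 to -1.07), and the knockout lay below RTT_ROSA26 by only -0.39 (-0.49 to -0.28). The ratio to NTT joins different types, mostly TAM_H2Ab1 in NTT and TAM_C1q in RTT, and within the 6 types compared none was past 2-fold, with -0.82 (-1.44 to -0.25) in TAM_cycling, 0.20 (-1.15 to 1.64) in TAM_H2Ab1 and a median of 0.07. Both RTT_ROSA26 and RTT kept Ptgs1 and Ptgs2, and their gap in Socs2 exceeded that between the knockout and its control. In TAM_C1q Socs2 was at 36.1 CPM in RTT, 15.1 CPM in RTT_ROSA26 and 10.8 CPM in RTT_PTGS12KO, and in TAM_Spp1 at 52.0, 33.9 and 20.7 CPM. Ctsk_Macro went against this for the knockout, with 30.5 CPM against 15.8 CPM in RTT_ROSA26, a log2 ratio of 0.90 (0.55 to 1.25).

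The cells richest in Socs2 were DC3. They held 373 CPM in NTT and 355 CPM in RTT_PTGS12KO, the samples with over 50 such cells, and the next type, TAM_Spp1, had a median of 33.9 CPM, so the ranges of DC3 and of all other ordered types did not overlap. After thinning, 60.9% (49.9% to 71.2%) of 87 DC3 in NTT and 54.5% (42.8% to 65.9%) of 77 in RTT_PTGS12KO held a Socs2 UMI, against 0 of 136 Infl_Mono cells in RTT, with an upper bound of 2.68%. The unthinned shares were 73.0%, 79.0% and 7.25%. Monocytes held 5.57 to 11.97 CPM, from 9 UMIs in RTT_ROSA26, and at that depth no difference between their samples could be seen except that the knockout, at 5.57 CPM (4.88 to 6.33), lay below NTT, at 11.97 CPM (11.04 to 12.95), and RTT, at 9.58 CPM (7.04 to 12.7).

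**Figure D4:**
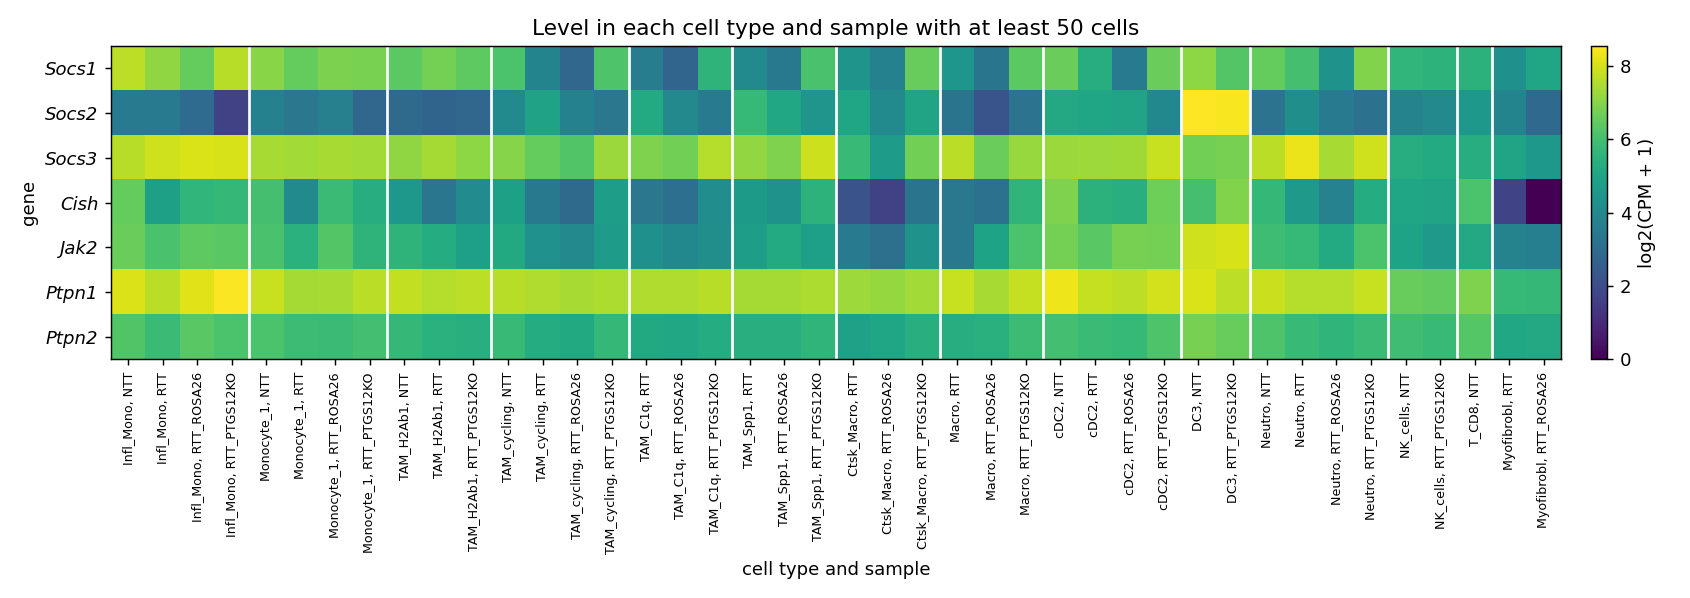
Level of each gene (rows, colour as log2 of CPM + 1) in each cell type and sample with at least 50 cells (columns, grouped by cell type). Socs2 is brightest in DC3 (373 and 355 CPM), Socs1 is darker in the cycling, C1q and Spp1 TAMs of RTT and RTT_ROSA26, and Ptpn2 stays between 28.5 and 110.5 CPM.

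Jak2, the kinase bound to receptors for interferon-gamma, GM-CSF and growth hormone, was measured beside its brakes. In macrophages it was at 41.8 CPM (35.8 to 48.6) in NTT, 20.3 CPM (19.4 to 21.2) in RTT, 17.4 CPM (16.6 to 18.2) in RTT_ROSA26 and 23.4 CPM (22.4 to 24.4) in RTT_PTGS12KO. NTT was highest, and its log2 ratio to RTT, 1.01 (0.78 to 1.23), sits at the 2-fold line, but it was 0.88 (0.44 to 1.29) within TAM_cycling and 0.27 (-0.30 to 0.87) within TAM_H2Ab1. In the knockout the class ratio was 0.41 (0.32 to 0.50), with types on both sides of 0, from 1.21 (0.76 to 1.66) in Ctsk_Macro to -0.43 (-0.61 to -0.24) in TAM_Spp1 and -0.70 (-1.20 to -0.14) in Monocyte_1. Jak2 was highest in DC3 (239.9 and 257 CPM), whose range lay clear of cDC2s (108 CPM, 81.3 to 109), followed by Infl_Mono (83.3 CPM, 67.5 to 95.6), and it was lowest in Ctsk_Macro (10.8 CPM, 7.80 to 19.4).

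The phosphatases varied least between samples in macrophages. Ptpn1 in macrophages was at 207 CPM (193 to 221) in NTT, 178 CPM (175 to 180.4) in RTT, 174 CPM (171 to 176) in RTT_ROSA26 and 186 CPM (183 to 189) in RTT_PTGS12KO, and in monocytes at 237, 177, 242 and 222 CPM. It was past 2-fold in no cell type in any comparison, and its log2 ratio ran from 0.07 to 0.37 over the 9 types of the knockout comparison and from 0.10 to 0.53 over the 6 types of NTT against RTT, above 0 in all of them. Ptpn2 in macrophages was at 50.4 CPM (43.8 to 57.8) in NTT, 36.7 CPM (35.5 to 37.9) in RTT, 35.5 CPM (34.3 to 36.7) in RTT_ROSA26 and 45.4 CPM (44.0 to 46.8) in RTT_PTGS12KO. RTT and RTT_ROSA26 overlapped and the knockout lay above both, with a knockout log2 ratio of 0.35 (0.28 to 0.41) and 0.34 to 0.35 over the loads. Ptpn2 too was past 2-fold in no type, with 0.17 to 0.44 in NTT against RTT and -0.26 to 0.48 in the knockout comparison. Ptpn1 was highest in Infl_Mono (277 CPM, 203 to 360 over 4 samples) and lowest in Myofibrobl (51.4 CPM), and Ptpn2 was highest in DC3 (102 CPM, 93.7 to 110.5) and lowest in Ctsk_Macro (32.1 CPM, 28.5 to 40.1). The thinned share of macrophages with a Ptpn1 UMI ran from 37.5% in RTT_ROSA26 to 46.1% in NTT, and with a Ptpn2 UMI from 10.1% to 13.1% in the same samples (unthinned 80.5% and 83.4%, and 40.1% and 44.5%). Over the 32 units the lowest Ptpn1 share was 12.1% (4.99% to 23.3%), in Myofibrobl of RTT_ROSA26. The lowest Ptpn2 share was 9.63% (8.31% to 11.1%), in TAM_cycling of RTT_ROSA26, so 10.1% lay near it.

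Counted over the list, the members can be set against all genes with at least 10 CPM. Over monocytes and macrophages together, 3 of 7 members (Socs1, Cish and Jak2) were at least 2-fold higher in NTT than in RTT, where 6.9% of 6954 genes were, and 1 (Socs2) was at least 2-fold lower, where 7.51% were. In RTT_PTGS12KO against RTT_ROSA26, 2 members (Socs1 and Cish) were higher, beside 4.1% of genes, and 0 lower, beside 1.6%. In RTT_ROSA26 against RTT, 0 were higher, beside 0.532%, and 2 (Socs1 and Socs2) lower, beside 1.22%. The median log2 ratio of the 7 members was 0.85, 0.79 and -0.43 in these comparisons, and that of all genes was -0.12, -0.12 and 0.06.

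Within monocytes 6 members passed the minimum, Socs2 being below it, and Cish alone was past 2-fold. It was higher in NTT against RTT, where 1.63% of 6438 genes were higher and 1.32% lower, and higher in RTT_ROSA26 against RTT, where 1.43% were higher and 1.86% lower. In the knockout comparison 0 of 6 members passed in either direction, beside 1.82% of genes higher and 1.63% lower. Within macrophages, Socs1 and Jak2 were higher and Socs2 lower in NTT against RTT, beside 4.74% of 7061 genes higher and 3.44% lower, though Jak2 and Socs2 were past 2-fold in none of the 6 types compared. Socs1, Socs3 and Cish were higher and none was lower in RTT_PTGS12KO against RTT_ROSA26, beside 2.52% and 0.878%. In RTT_ROSA26 against RTT, Socs2 was lower and none was higher, beside 0.779% lower and 0.524% higher. The median log2 ratio of the members in macrophages was 0.45, 0.41 and -0.42 in the order of comparisons above, against 0.00, -0.08 and 0.06 for all genes.

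Of the rest of the SOCS family, adaptors of ubiquitin ligases, Socs4 was at 19.5 to 22.9 CPM and Socs6 at 25.1 to 34.2 CPM in macrophages of the 4 samples, and both were within 2-fold in every comparison. Socs5 and Socs7 were below the minimum of 10 CPM and were not counted. Socs5 over monocytes and macrophages together was at 3.15 CPM (2.70 to 3.65) in NTT, 6.16 CPM (5.69 to 6.66) in RTT, 5.89 CPM (5.43 to 6.39) in RTT_ROSA26 and 4.52 CPM (4.17 to 4.90) in RTT_PTGS12KO, so its interval in NTT lay below those of all other samples. By class it did not, since in monocytes NTT (2.69 to 3.69 CPM) overlapped RTT (3.63 to 8.01 CPM) and in macrophages (1.53 to 5.16 CPM) it overlapped RTT_PTGS12KO (4.16 to 5.06 CPM). Of the other JAKs, 2 of 3 were tested and 0 was past 2-fold in any comparison, pooled or by class.

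Among 11 other brakes, of which 9 were tested over both classes together, only Usp18, which blocks the type I interferon receptor, was past 2-fold higher, in NTT against RTT and in the knockout, beside 6.9% and 4.1% of all genes. It was at 81.3 CPM in NTT, 5.31 CPM in RTT, 3.89 CPM in RTT_ROSA26 and 18.5 CPM in RTT_PTGS12KO. By class, it was past 2-fold in macrophages only, with a log2 ratio of 3.68 (3.45 to 3.90) in NTT against RTT and 1.42 (1.27 to 1.57) in the knockout comparison. Its ratios in monocytes were 0.87 (0.68 to 1.07) and -0.89 (-1.23 to -0.52), the latter in the opposite direction. Stat2, a partner in interferon-driven transcription, was at 81.2 CPM in NTT, 15.1 CPM in RTT, 9.96 CPM in RTT_ROSA26 and 28.2 CPM in RTT_PTGS12KO macrophages, with log2 ratios of 2.36 (2.18 to 2.53) and 1.41 (1.31 to 1.51). In monocytes its ratios stayed within 2-fold, at 0.68 (0.51 to 0.86) and -0.17 (-0.52 to 0.22).

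Among 17 tested STAT targets, 6 were higher in NTT against RTT and 4 in the knockout over both classes together, beside 6.9% and 4.1% of all genes, 0 were lower in either, and 2 (Gbp2 and Irf1) were lower in RTT_ROSA26 against RTT, beside 1.22%. The median of this list was 0.72, 0.57 and -0.29 in the 3 comparisons, against -0.12, -0.12 and 0.06 for all genes. Within macrophages 5, 4 and 0 of 17 were higher, beside 4.74%, 2.52% and 0.524% of genes, and within monocytes 1, 2 and 0, beside 1.63%, 1.82% and 1.43%. Lower were Myc in monocytes, beside 1.86%, and Gbp2 and Irf1 in macrophages, beside 0.779%, each in RTT_ROSA26 against RTT.

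Irf1, an interferon-induced transcription factor, was at 285 CPM in NTT, 96.8 CPM in RTT, 28.2 CPM in RTT_ROSA26 and 227 CPM in RTT_PTGS12KO macrophages, and at 392, 264, 239 and 290.4 CPM in monocytes. Gbp2, a guanylate-binding protein, was at 349, 86.2, 26.0 and 428 CPM in macrophages, with a knockout log2 ratio of 3.99 (3.93 to 4.04). In monocytes Gbp2 was at 891 CPM in NTT, below RTT at 1231 CPM, a log2 ratio of -0.47 (-0.50 to -0.43). Ciita, the master activator of MHC class II, was at 63.2, 5.18, 3.71 and 31.6 CPM in macrophages, and in monocytes at 82.2, 53.6, 33.9 and 80.1 CPM. Irf1 and Ciita, like Socs1, thus spanned a wider range between samples in macrophages than in monocytes, and so did Gbp2 between NTT and RTT. These genes were named for their pooled ratios in these data, so the likeness to Socs1 is not independent evidence.

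Of 18 receptor genes tested over both classes together, 4 were higher and 1 lower in NTT against RTT, beside 6.9% and 7.51% of all genes, and 2 higher and 0 lower in the knockout, beside 4.1% and 1.6%. Between RTT_ROSA26 and RTT, 0 were higher and 2 lower in the former, beside 0.532% and 1.22%, namely Il7r and Il15ra, the latter being one of the 2 higher in the knockout. Most of these calls were not made within a class. In macrophages 2 of 17 were higher and 0 lower in NTT against RTT, beside 4.74% and 3.44% of genes, 0 were past 2-fold in the knockout, beside 2.52% and 0.878%, and 0 were higher and 1 lower in RTT_ROSA26 against RTT, beside 0.524% and 0.779%. In monocytes 1 of 20 was higher and 1 lower in NTT against RTT, beside 1.63% and 1.32%, 1 higher and 0 lower in the knockout, beside 1.82% and 1.63%, and 0 higher and 2 lower in RTT_ROSA26 against RTT, beside 1.43% and 1.86%. The one higher in the knockout, Il12rb1, a chain of the IL-12 receptor, rests on 3 UMIs in RTT_ROSA26 monocytes, which were also past 2-fold below RTT. Il2rg, the common gamma chain, was at 207 CPM in NTT and 48.3 CPM in RTT macrophages but at 76.7 against 47.05 CPM in the knockout comparison, a log2 ratio of 0.69 (0.64 to 0.75). Csf3r, the G-CSF receptor, was at 30.5 against 12.8 CPM in NTT and RTT macrophages. Il15ra, which presents IL-15, was below the minimum in macrophages, at 6.38 against 2.12 CPM in the knockout comparison, and in monocytes stood at 27.6 against 24.9 CPM. Il4ra, the IL-4 receptor chain, was lower in NTT than in RTT by less than 2-fold in both classes, the log2 ratio being -0.97 (-1.09 to -0.85) for macrophages and -0.68 (-0.77 to -0.58) for monocytes. Il7r, the IL-7 receptor chain, was past 2-fold lower in RTT_ROSA26 than in RTT in both, with -1.15 (-1.21 to -1.10) and -1.13 (-1.46 to -0.82).

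Only 5 of 19 cytokine genes passed the minimum over both classes together, of which 3 were higher and 1 lower in NTT against RTT (beside 6.9% and 7.51% of genes), 1 higher and 1 lower in the knockout (4.1% and 1.6%), and 0 higher and 1 lower in RTT_ROSA26 against RTT (0.532% and 1.22%). In macrophages 3 passed it, with 1 higher and 1 lower in NTT against RTT (4.74% and 3.44%), 0 in the knockout (2.52% and 0.878%), and 0 higher and 1 lower in RTT_ROSA26 against RTT (0.524% and 0.779%). In monocytes 6 passed it, with 2 higher and 0 lower in NTT against RTT (1.63% and 1.32%), 0 higher and 1 lower in the knockout (1.82% and 1.63%), and 3 higher and 0 lower in RTT_ROSA26 against RTT (1.43% and 1.86%). Those 3 were Ifnb1, Il15 and Il6, and in RTT_ROSA26 monocytes they rest on few cells, with 54 UMIs of Ifnb1 and 9 of Il6 in 144 cells. Il10, an anti-inflammatory cytokine that signals through Stat3, was at 8.37 CPM in NTT, 40.7 CPM in RTT, 13.8 CPM in RTT_ROSA26 and 7.93 CPM in RTT_PTGS12KO macrophages, so RTT was highest, and in monocytes at 2.29, 8.36, 10.98 and 2.76 CPM. Il27, a subunit gene of IL-27, was at 20.4, 2.97, 1.41 and 7.53 CPM in macrophages and at 37.5, 25.7, 25.9 and 30.5 CPM in monocytes. Ebi3, the other subunit gene of IL-27, was at 53.4 against 17.5 CPM in NTT and RTT macrophages. Il15, a growth factor of NK and memory T cells, was at 33.1 against 10.8 CPM in NTT and RTT monocytes, and at 30.9 CPM in RTT_ROSA26 monocytes.

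Over 42 units of cell type and sample with at least 50 cells, the genes whose log2(CPM + 1) ran most like each member were found among 7096 genes; units share libraries, depth and cell lineage, so the correlations are descriptions across units. For Socs1 they were Gbp5 (r = 0.88), Gbp4 (0.87) and Irf1 (0.86), for Socs3 Zfp36 (0.92), Picalm (0.91) and Slc15a3 (0.91), and for Socs2 Map4k4 (0.84), Ppdpf (0.80) and Ccr7 (0.78). For Cish they were Malt1 (0.90), Gpr132 (0.89) and Pfkp (0.88), and for Jak2 C130026I21Rik (0.91), A530032D15Rik (0.91) and Nup98 (0.88). For Ptpn1 they were Myd88 (0.92), Irf5 (0.92) and Sbno2 (0.91), and for Ptpn2 Jak2 (0.88), Glipr2 (0.86) and Atp11b (0.86). Among the members themselves r was highest between Jak2 and Ptpn2 (0.88), Cish and Ptpn2 (0.85) and Cish and Jak2 (0.83), and it was -0.13 between Socs1 and Socs2 and 0.45 between Socs1 and Socs3. Over the 23 units with at least 200 cells, r between Socs1 and Socs2 was -0.59.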

How the data were processed

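Cells of the 4 samples carried multiplexing oligos and were pooled before 3 chip loads. The authors deposited 1 matrix of UMI counts with a sample and a cell type name per cell. Per the submitters' processing notes and the study's methods, reads were counted with Cell Ranger on mm10, a cell was kept if it had more than 1000 genes, less than 15% of UMIs from mitochondrial genes and less than 40% from ribosomal ones, and types were named in Seurat 4.3.0 after Harmony integration. The deposited cells were used as given. Oligos remove doublets between samples; no doublet caller was run, and the 5% of cells with the most UMIs were removed as an alternative.

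UMIs were summed per sample and cell type or class and divided by the total to give CPM. Ratios used CPM + 1, and called means at least 2-fold among genes whose mean over the 4 samples reached 10 CPM. Levels needed 20 cells and ratios and ordered types 50. The members and the pathway lists were chosen with earlier results of these data known. Genes were named by a fixed rule: the 7 members, the 3 highest and 3 lowest past 2-fold of each pathway list over monocytes and macrophages, and the 3 genes most like each member. Il12rb1, Ifnb1, Il6, Myc and Socs5 were named after their values were seen. The lists were JAKs, other SOCS genes, other brakes, receptors, cytokines and STAT targets, with Stat2 beside them; some items are not reported here.

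Python 3.11.15 (scipy 1.17.1, pandas 2.3.3, numpy 2.4.6) was used, with matplotlib 3.10.9 for figures and edgeR 4.0.16 in R 4.3.3 for TMM factors only. The ratio step was tested on simulated data. Alternatives were CPM + 10, 1.5-fold, TMM factors, single loads, a stricter cell filter and the mean over cells. Others were thinning to 5000 UMIs, no thinning, other class definitions and units of at least 200 cells. No pairing of samples was possible.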

Additional observations from a re-analysis of the deposited data

Results flagged for a closer look

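Several members differed in opposite directions in monocytes and in macrophages of the same comparison. Each group is 1 sample, so the difference was not tested in any of these cases, and the monocytes of RTT_ROSA26 number 144, mostly Infl_Mono, against mostly Monocyte_1 in the other samples. In RTT_PTGS12KO against RTT_ROSA26, the log2 ratio of Socs3 was -0.37 in monocytes and 1.01 in macrophages, and that of Jak2 was -0.66 and 0.41. In RTT_ROSA26 against RTT, the log2 ratio was 0.31 in monocytes and -0.42 in macrophages for Socs3, 1.36 and -0.51 for Cish, 0.68 and -0.21 for Jak2, and 0.45 and -0.0339 for Ptpn1. The macrophage value of Jak2 in the latter comparison turned to 0.02 when each cell's CPM was averaged, and that of Ptpn1 to 0.01 within TAM_C1q alone. Over 10 types in that comparison, Jak2 was above 0 in 5 and below 0 in 5, with a median log2 ratio of 0.10. Macrophage types went both ways. The thinned share with a Jak2 UMI was 11.2% in RTT_ROSA26 against 7.56% in RTT for TAM_Spp1, and 4.38% against 5.74% for TAM_cycling. Within single monocyte types the knockout ratios of Socs3 were -0.02 in Infl_Mono and -0.04 in Monocyte_1, and those of Jak2 were -0.07 (-0.49 to 0.39) and -0.70 (-1.20 to -0.14). In RTT_ROSA26 against RTT they were 0.11 (-0.17 to 0.40) and 0.06 (-0.32 to 0.42) for Socs3, 0.76 (0.02 to 1.50) and 1.74 (1.00 to 2.44) for Cish, 0.33 (-0.20 to 0.85) and 0.78 (0.19 to 1.34) for Jak2, and 0.49 (0.20 to 0.77) and 0.02 (-0.36 to 0.38) for Ptpn1, in Infl_Mono and Monocyte_1 in turn. The Socs3 ratios within both types, and that of Ptpn1 in Monocyte_1, were thus near 0 with intervals that hold 0.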

How the results depend on the processing

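For the 7 members in monocytes, macrophages and both together, no difference of at least 2-fold reversed under any alternative run; ratios within single types and other genes were not rerun. Of the log2 ratios under other settings, 415 stayed within their counting interval and 145 moved outside it. The number of members past 2-fold stayed within 1.5 times in 88 cases and moved in 10. In monocytes and macrophages together it became 5 for RTT_PTGS12KO against RTT_ROSA26 at 1.5-fold, and for RTT_ROSA26 against RTT it became 0 with CPM + 10, 1 with the mean over cells and 1 in load 1 alone. In monocytes it became 1 for the knockout and 2 for RTT_ROSA26 against RTT at 1.5-fold. In macrophages it became 1 for the knockout with CPM + 10, where Socs3 and Cish both stood at 0.94, and for RTT_ROSA26 against RTT 0 with CPM + 10, 2 in load 2 alone and 2 at 1.5-fold. The cause was not tested beyond what each setting fixes. The log2 ratio of Socs2 in monocytes, from few UMIs, ran from -1.66 to 2.62 over the loads for the knockout. Of the percentages of cells, 107 moved and 5 did not, counted over thinning to 5000 UMIs and no thinning together. Both settings keep more UMIs per cell, which by design raises most shares. NTT against RTT was not run on TAM_C1q alone, since NTT held 12 such cells. All 7 lists of the 3 genes most like a member changed with units of at least 200 cells, keeping 2 of 3 genes for Cish and Ptpn1 and 1 of 3 for each other member. Depth limits Socs2 in monocytes, and with 1 sample per group no interval covers variation between mice. No paired analysis was possible because a group holds only 1 sample.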
